A study of Mus musculus with 4 samples.

Results

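The genes described here mark the neurons of the pelvic ganglia and the Schwann cells of the nerves in and around the urogenital sinus (UGS), the embryonic tube from which the prostate and urethra form. They are 31 of the 25819 rows of the expression table, 24 neuronal and 7 glial. They were chosen by symbol, with earlier results of these data known. Levels are in FPKM, read numbers corrected for the length of the transcript and the depth of the library. All 31 genes had a row, and 30 were at 1 FPKM or more in all 4 libraries. The exception was *Chat*, which was under 1 FPKM in 3 of them.

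Whole UGS was taken for RNA-Seq from male mouse embryos of a B6C3-F1 background on embryonic days E16.5 and E18.5. At each stage, 1 library came from wild type embryos and 1 from Tbx18Gfp/Gfp embryos, in which a *GFP* knock-in has inactivated both copies of *Tbx18*, a T-box transcription factor gene of the mesenchyme, in every cell. RNA of 3 embryos was pooled for each of the 4 libraries. With 1 library per group the differences had no replicate check, and neither tests nor replicate errors could be given. The intervals printed are exact binomial 95% intervals on estimated reads and cover counting error only.

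Autonomic neurons of the pelvic ganglia arise from the neural crest under transcription factors that include PHOX2A and HAND2. The ganglia are mixed: noradrenergic neurons make noradrenaline with tyrosine hydroxylase and dopamine beta-hydroxylase, and cholinergic neurons make and store acetylcholine, often together with nitric oxide or the peptide VIP. Schwann cells arise from the same crest under SOX10, take up neuregulin signals from axons through ERBB3 and later make myelin.

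In the E16.5 libraries, 21 of the 24 neuronal genes were lower in Tbx18Gfp/Gfp than in wild type UGS, by a median of -0.31 on the log2 scale, where 45.7% of all expressed genes (1 FPKM or more in either library) were lower. This count of genes lower by any amount was added after the data were seen. The 3 genes that were higher were *Th*, *Npy* and *Dbh*. All are expressed by noradrenergic neurons, although *Npy* is also known from other cells and *Dbh* turned to -0.02 with library sums made equal. Of other noradrenergic genes listed, *Slc18a2* and *Slc6a2* were at 0.05 and 0.06, and *Slc18a1* and *Ddc* at -0.10 and -0.23. In the values as deposited, the neuronal genes did not lie on 1 side at E18.5. Of 23 at 1 FPKM or more, 14 were lower, with *Npy*, *Syn1* and *Snap25* lowest, where 30.5% of all genes were. Higher were 9, with *Slc18a3* and *Uchl1* highest, where 69.5% were. With a fitted dependence of the ratio on GC content and transcript length subtracted, 17 of 23 were lower, where 48.9% of genes were. On that scale 9 were at least 2-fold lower, where 5.22% were, and none was 1.5-fold higher, where 13.1% were. As deposited, 3 were 2-fold lower, where 2.89% were. The subtracted trend makes up most of the values of *Phox2a* (-0.19 as deposited, -1.29 after it) and *Hand2* (-0.50 and -1.32). *Slc18a3* and *Uchl1* were at 0.30 and 0.32 after it. Of the 7 glial genes, none passed a 2-fold difference between genotypes at either stage in the values as deposited, where 1.17% of all genes were 2-fold lower and 0.481% higher at E16.5, and 2.89% and 15.1% at E18.5. *Sox10* and *Foxd3*, at -0.21 and -0.09 as deposited, were more than 2-fold lower at E18.5 with the GC and length dependence subtracted, at -1.11 and -1.16. Both are rich in GC, at the 97.8 and 99.5 percentiles of genes. The E18.5 wild type library was the highest or lowest of the 4 libraries for 25 of the 31 genes, where it was for 85.6% of all 15023 genes that reached 1 FPKM in any library.

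The depth of the libraries, estimated from genes carrying a single read, was 29000000 mapped reads for E18.5 wild type and between 52400000 and 64000000 for the others. The median log2 ratio of Tbx18Gfp/Gfp to wild type, taken over all genes that reached 1 FPKM in each library compared, was 0.01 at the earlier stage and 0.29 at the later. Ratios at the later stage are therefore also given after subtracting this median. *Tbx18* itself was listed at 3.47 FPKM (wild type) and 2.50 FPKM (Tbx18Gfp/Gfp) at the earlier stage and at 3.16 and 2.93 FPKM at the later. FPKM do not separate transcripts of the targeted and the intact locus.

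The labels of both gene sets were checked against markers. The autonomic factor gene *Phox2a* lay between 16.52 and 21.3 FPKM and the glial factor gene *Sox10* between 6.18 and 7.89 FPKM. None of 8 markers of brain and spinal cord neurons and glia reached 1 FPKM, and their summed level was at most 0.785 FPKM in a library. *Pnmt*, the enzyme that defines adrenaline-making chromaffin cells, was at 0.12 FPKM or less, while other genes of a 4-gene chromaffin list, such as the vesicle gene *Chga*, which autonomic neurons also use, were detected in all libraries. Markers of sensory neurons summed to between 4.67 and 10.8 FPKM, with 2 or 3 of 8 at 1 FPKM or more. The 24 neuronal genes summed to 1139 and 960 FPKM in the wild type and Tbx18Gfp/Gfp libraries of E16.5 and to 1028 and 968 FPKM in those of E18.5. *Npy* alone made up 261 and 78.1 FPKM of the E18.5 sums, so the direction between those sums rests on *Npy*. The 7 glial genes summed to 101 and 89.0 FPKM and then to 72.1 and 95.8 FPKM. *Hand2*, *Ret*, *Uchl1*, *Nos1* and *Npy* are also known from other cells of the region, as are *S100b*, *Fabp7*, *Mbp* and *Mal*. In whole tissue, fewer cells of a type and less RNA per cell cannot be told apart.

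**Figure D1:**
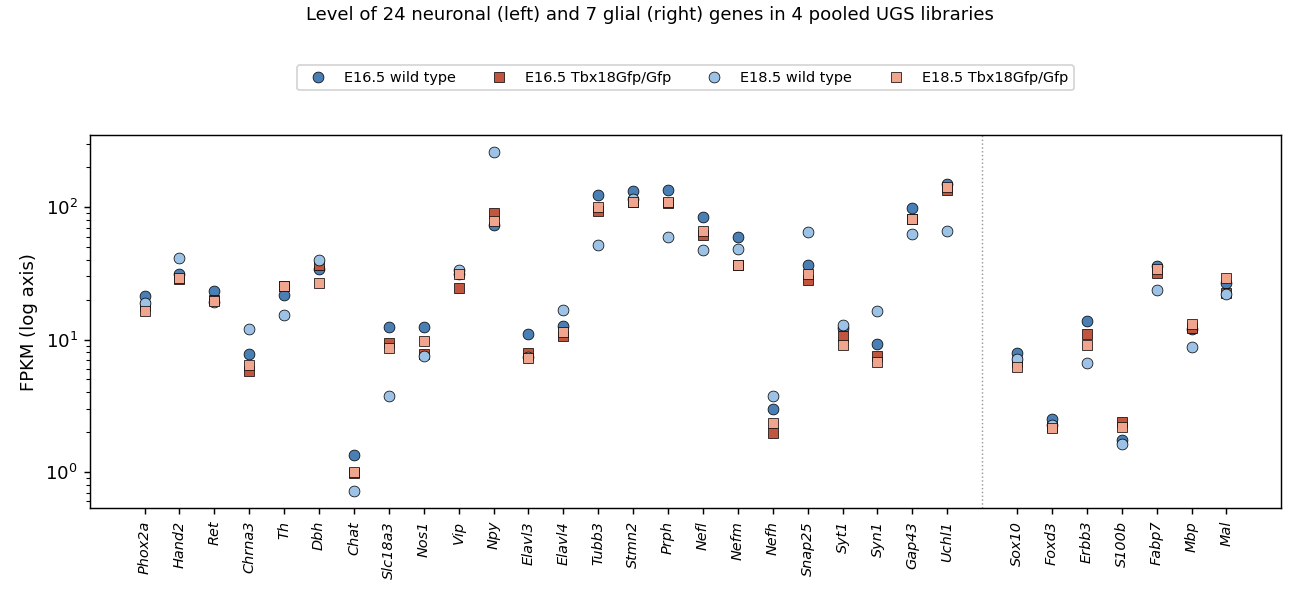
FPKM (y axis, log scale) of each of the 24 neuronal genes (left of the dotted line) and 7 glial genes (right) in the 4 pooled libraries, 1 point per library, circles for wild type and squares for Tbx18Gfp/Gfp. The 2 Tbx18Gfp/Gfp squares lie close together for most genes, while the E18.5 wild type circle stands away for *Npy* (261 FPKM), *Slc18a3* (3.76 FPKM) and *Uchl1* (65.9 FPKM).

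Among regulators of neuronal identity, *Phox2a*, a homeobox gene of noradrenergic and other autonomic neurons, was at 21.3 FPKM in the wild type library and 17.8 FPKM in the Tbx18Gfp/Gfp library at E16.5, and at 18.8 and 16.52 FPKM at E18.5. It was lower in the mutant library at both stages, by log2 ratios of -0.26 and -0.19, and the E18.5 ratio became -0.61 with library sums made equal and -1.29 with the dependence on GC content and length removed. Paired values of the other genes are likewise given with wild type before Tbx18Gfp/Gfp. *Hand2*, a basic helix-loop-helix factor that mesenchyme also expresses, was at 31.3 and 28.5 FPKM at E16.5 and at 41.6 and 29.3 FPKM at E18.5. Its log2 ratios were -0.14 and -0.50, and the E18.5 wild type library was the highest of the 4. *Ret*, the receptor through which GDNF family ligands keep autonomic neurons alive, was at 23.1 and 19.8 FPKM at E16.5 and at 19.2 and 19.7 FPKM at E18.5. The E16.5 wild type value was the highest, and the other 3 lay between 19.2 and 19.8 FPKM. The E18.5 log2 ratio of 0.03 was below 0 under each scaling and after the GC and length trend, between -0.19 and -0.39. *Chrna3*, the nicotinic receptor subunit that carries fast transmission in autonomic ganglia, was at 7.83 and 5.75 FPKM at E16.5 and at 12.1 and 6.44 FPKM at E18.5. It was lower in the mutant library at both stages, with log2 ratios of -0.45 and -0.91.

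The transmitter genes are shown with the sequence before their start sites for *Th*, *Npy* and *Slc18a3*, which stood out in direction or size, together with *Syn1*, the synaptic gene with the lowest E18.5 ratio after *Npy*. The sequences are from RefSeq on GRCm38.p6, written 5′ to 3′ on the strand of the gene, and end before the RefSeq start or before the first base that a GENCODE exon of the gene covers. Capitals mark TGACG on either strand, the core of the cyclic AMP response element TGACGTCA, and in *Syn1* also TTCAGCACC, the start of the element bound by the neuronal gene repressor REST.
*Th*, chr7:142900015-142900245, minus strand: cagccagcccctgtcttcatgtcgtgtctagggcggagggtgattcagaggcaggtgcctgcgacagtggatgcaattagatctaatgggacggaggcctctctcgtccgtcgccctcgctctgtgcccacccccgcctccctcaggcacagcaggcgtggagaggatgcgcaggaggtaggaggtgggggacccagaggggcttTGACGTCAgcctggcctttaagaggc
*Npy*, chr6:49822460-49822709, plus strand: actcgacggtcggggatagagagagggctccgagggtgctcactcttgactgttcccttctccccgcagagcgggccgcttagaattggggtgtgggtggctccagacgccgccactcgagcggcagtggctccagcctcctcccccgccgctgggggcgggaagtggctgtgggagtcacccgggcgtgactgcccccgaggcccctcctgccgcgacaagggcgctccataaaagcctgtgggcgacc
*Slc18a3*, chr14:32464851-32465100, minus strand: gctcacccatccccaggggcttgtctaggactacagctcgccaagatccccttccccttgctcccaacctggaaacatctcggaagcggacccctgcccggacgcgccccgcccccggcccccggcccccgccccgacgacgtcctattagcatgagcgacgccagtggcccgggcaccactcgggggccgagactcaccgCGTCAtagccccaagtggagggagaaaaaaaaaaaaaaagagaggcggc
*Syn1*, chrX:20921005-20921168, minus strand: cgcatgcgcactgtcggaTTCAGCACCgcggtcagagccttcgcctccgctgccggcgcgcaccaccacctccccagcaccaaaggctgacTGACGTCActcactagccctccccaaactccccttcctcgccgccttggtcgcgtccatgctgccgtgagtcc

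Positions are counted from the RefSeq start, with -1 for the base before it. The full TGACGTCA began at -45 in *Th* and at -159 in *Syn1*. In both, its palindrome holds TGACG on either strand, so the core was matched again at -42 and at -156. *Slc18a3* held the core without the full element, at -49, and the *Npy* window held neither. Windows of 250 bases were available for 21 of the 31 genes, and TGACGTCA was found in those of *Foxd3*, *Syn1* and *Th*, 3 of 21 genes, against 1.56% of all 32536 promoter windows. TGACG was found for 10 of the 21 genes, which had 25 windows between them, against 17.9% of all windows. TTCAGCACC began at -232 in *Syn1*, the only one of the 21 genes with a match, against 0.301% of all windows. Members were counted by gene, with a match in any window of the gene, and the background by distinct window. The shares therefore differ in unit, and genes with several windows had more chances to match. A match describes letters in the window and was not tied to any level.

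Of the 3 neuronal genes that were higher in the mutant library at E16.5, *Th* and *Dbh* are typical of noradrenergic neurons. *Npy* is made in them too, but is also known from other cells. *Th*, which encodes the rate-limiting enzyme of noradrenaline synthesis, was at 21.7 and 25.6 FPKM at E16.5 and at 15.2 and 25.3 FPKM at E18.5. It was higher in the mutant library at both stages, with log2 ratios of 0.24 (counting interval 0.16 to 0.32) and 0.73 (0.61 to 0.85). *Dbh*, which encodes the enzyme that turns dopamine into noradrenaline, was at 34.1 and 36.3 FPKM at E16.5 and at 40.1 and 27.0 FPKM at E18.5. Its log2 ratio of 0.09 at E16.5 became -0.02 with library sums made equal, so its direction at that stage depended on scaling, and at E18.5 the ratio was -0.57. *Npy*, a peptide stored with noradrenaline in sympathetic endings, was at 74.0 and 90.8 FPKM at E16.5 and at 261 and 78.1 FPKM at E18.5. The log2 ratios were 0.29 (0.20 to 0.39) and -1.74. At the later stage the wild type library was far above the other 3. Of the 4 other noradrenergic genes listed, picked with their values in view, the transporters *Slc18a2* and *Slc6a2* had E16.5 log2 ratios of 0.05 and 0.06, and *Slc18a1* and *Ddc* had -0.10 and -0.23. Over all 46 other neuronal genes, 34 were lower and 12 higher at E16.5. The latter included the peptide genes *Tac1* (0.45), *Penk* (0.38) and *Cartpt* (0.34), also picked with their values in view. *Ddc*, the decarboxylase that follows *Th* in the pathway, was also higher in the mutant library at E18.5, with 6.78 and 13.5 FPKM.

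The cholinergic genes *Chat* and *Slc18a3* and the nitrergic gene *Nos1* were lower in the mutant library at E16.5 and higher at E18.5 in the values as deposited. The E18.5 log2 ratio of *Nos1* turned from 0.39 to -0.03 with library sums made equal, and that of *Chat* from 0.48 to -0.06 with the dependence on GC content and length removed. *Chat*, the enzyme that makes acetylcholine, was at 1.34 and 0.975 FPKM at E16.5 and at 0.716 and 0.999 FPKM at E18.5. These values rest on few reads, about 55 estimated in E18.5 wild type, and the counting interval of the E16.5 log2 ratio of -0.46 ran from -0.76 to -0.14. *Slc18a3*, the vesicular acetylcholine transporter, was at 12.4 and 9.47 FPKM at E16.5 and at 3.76 and 8.60 FPKM at E18.5. Its log2 ratios were -0.38 and 1.20, and the E18.5 wild type library was the lowest of the 4. *Slc18a3* lies within the span of *Chat* on chromosome 14 in the table (33275623 to 33278036 within 33221389 to 33279095), so reads of the 2 genes may be split between them. *Nos1*, which makes nitric oxide and is also known from other cells, was at 12.4 and 7.79 FPKM at E16.5 and at 7.46 and 9.79 FPKM at E18.5. With a log2 ratio of -0.67 at E16.5 it was among the 3 neuronal genes lowest in the mutant library. *Vip*, a peptide of cholinergic pelvic neurons that relaxes smooth muscle, was at 31.5 and 24.5 FPKM at E16.5 and at 33.7 and 31.4 FPKM at E18.5. *Slc5a7*, the choline transporter of the same neurons, which is no member of the 24, was at 11.0 and 7.08 FPKM at E16.5, a log2 ratio of -0.64, and at 10.5 and 8.73 FPKM at E18.5.

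Genes that neurons of all kinds express were lower in the mutant library at E16.5 and varied in direction at E18.5. Of the RNA-binding proteins that mark new neurons, *Elavl3* was at 11.0 and 7.95 FPKM at E16.5 and at 7.33 and 7.22 FPKM at E18.5, and *Elavl4* was at 12.7 and 10.6 FPKM at E16.5 and at 16.9 and 11.4 FPKM at E18.5. The E16.5 log2 ratios were -0.46 and -0.26, while at E18.5 *Elavl3* was at -0.02 and *Elavl4* at -0.56. *Tubb3*, a neuronal tubulin, was at 124 and 93.9 FPKM at E16.5 and at 52.2 and 99.9 FPKM at E18.5. *Stmn2*, a regulator of growth cone microtubules, was at 132 and 109 FPKM at E16.5 and at 115 and 109.8 FPKM at E18.5. The mutant libraries were alike in both genes, and the E18.5 wild type library was far below them in *Tubb3* only. *Uchl1*, a ubiquitin hydrolase abundant in neurons, was at 150.1 and 136 FPKM at E16.5 and at 65.9 and 143 FPKM at E18.5. Its log2 ratios were -0.14 and 1.12.

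Of the 3 largest E16.5 differences, 2 were in neurofilament genes. *Nefm*, the medium neurofilament chain, was at 59.5 and 36.4 FPKM at E16.5 and at 48.6 and 36.7 FPKM at E18.5. Its E16.5 log2 ratio of -0.71 (counting interval -0.75 to -0.67) was the lowest of the 24 genes, and both mutant values were under both wild type values. *Nefl*, its assembly partner, was at 84.9 and 62.0 FPKM at E16.5 and at 47.7 and 66.7 FPKM at E18.5. *Nefh*, the heavy chain that appears late as axons mature, was at 2.97 and 1.96 FPKM at E16.5 and at 3.72 and 2.34 FPKM at E18.5. It had log2 ratios of -0.60 and -0.67, so that mutant values lay under wild type values at both stages, with a wider counting interval at E16.5 (-0.78 to -0.42). *Prph*, the filament of peripheral neurons, was at 134 and 107 FPKM at E16.5 and at 59.4 and 109 FPKM at E18.5. Its log2 ratio turned from -0.33 at E16.5 to 0.87 at E18.5, and to -0.07 at E18.5 with the dependence on GC content and length removed.

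The vesicle release genes *Snap25*, *Syt1* and *Syn1* were lower in the mutant library at both stages, and by more at E18.5. Of 9 other synapse genes listed, 8 were lower at E16.5, where 45.7% of all genes were. In the E18.5 values as deposited 4 were lower and 5 higher, where 30.5% of all genes were lower and 69.5% higher. In those values the direction was not shared by synapse genes as a group. The 5 were *Stx1a* (0.89), *Sv2a* (0.79), *Syn2* (0.45), *Snap91* (0.23) and *Syp* (0.14). *Snap91* and *Syp* lay under the all-gene median of 0.29. *Snap25*, a SNARE of vesicle fusion, was at 36.3 and 28.0 FPKM at E16.5 and at 65.0 and 31.3 FPKM at E18.5, with log2 ratios of -0.37 and -1.05. *Syt1*, the calcium sensor of release, was at 12.3 and 10.7 FPKM at E16.5 and at 12.8 and 9.16 FPKM at E18.5, with log2 ratios of -0.20 and -0.49. *Syn1*, a protein that tethers synaptic vesicles, was at 9.23 and 7.49 FPKM at E16.5 and at 16.4 and 6.79 FPKM at E18.5, with log2 ratios of -0.30 and -1.27. In wild type UGS the levels of *Snap25* and *Syn1* were higher at E18.5 than at E16.5, by 0.84 and 0.83, and in Tbx18Gfp/Gfp UGS the differences were 0.16 and -0.14. *Gap43*, a growth cone protein, went the other way, with 98.4 and 81.4 FPKM at E16.5, then 63.0 and 81.8 FPKM. Its E18.5 log2 ratio of 0.38 became -0.05 with library sums made equal and -0.07 with the dependence on GC content and length removed.

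Read against all genes, 3 of the 24 neuronal genes at E16.5 were at least 1.5-fold lower in the mutant library (*Nefm*, *Nos1* and *Nefh*), where 2.72% of all 14761 expressed genes were. None was 1.5-fold higher, where 1.44% of all genes were, and none passed 2-fold, where 1.17% of all genes were 2-fold lower and 0.481% higher. Lower by any amount were 21 of 24, against the 45.7% given above. The median over the list was -0.31, where that over all genes was 0.01. The 21 includes *Uchl1* and *Hand2*, at -0.14, and leaving out the 5 genes also known from other cells gave 17 of 19. Urothelial markers were also lower in sum at E16.5, at 401 and 289 FPKM over 7 genes, and markers of the nephric duct were higher, at 16.6 and 23.4 FPKM over 5. Their part in the result was not tested.

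**Figure D2:**
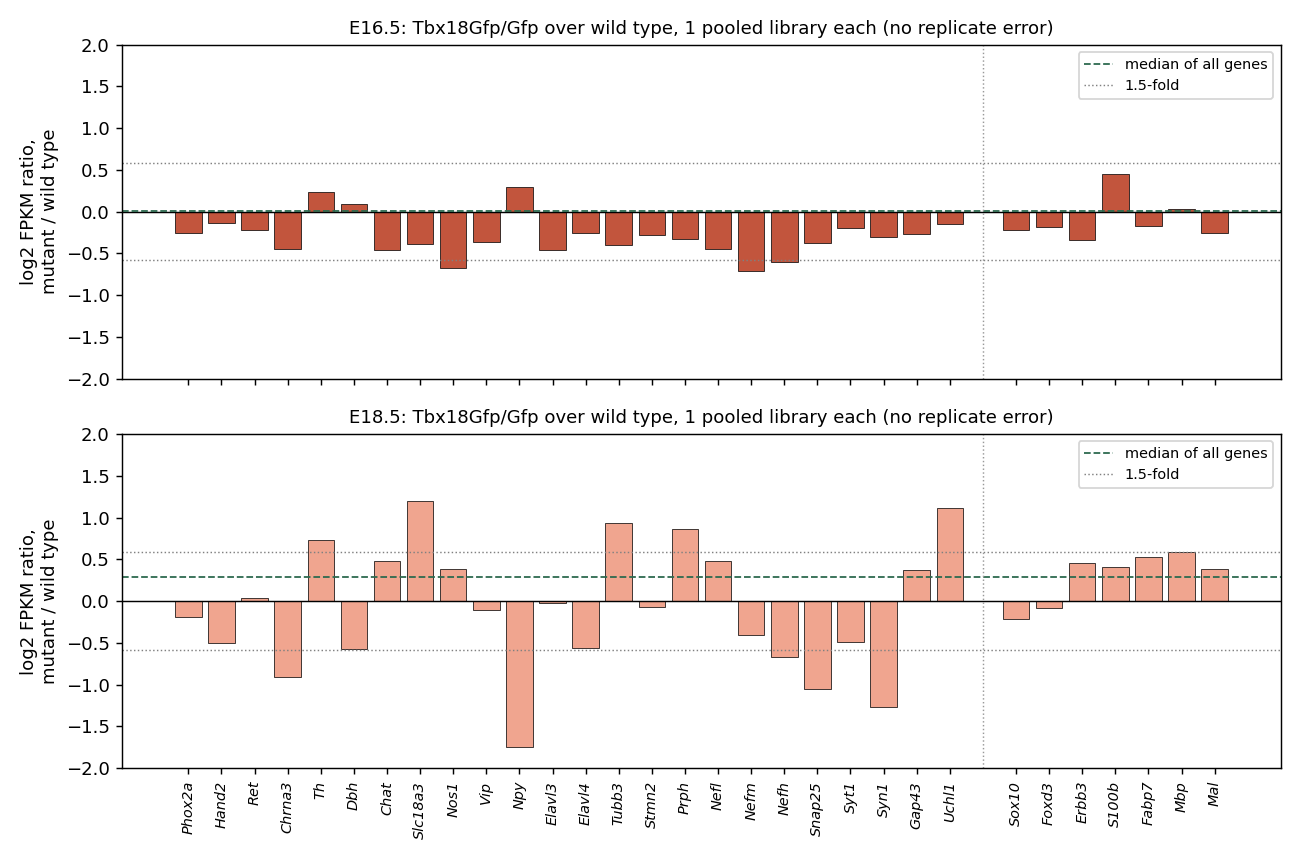
Log2 ratio of FPKM, Tbx18Gfp/Gfp over wild type (y axis), at E16.5 (top) and E18.5 (bottom) for the same genes, 1 bar per gene from 1 pooled library per genotype, with the median of all genes dashed and 1.5-fold dotted. The E16.5 bars of 21 of 24 neuronal genes lie under 0, while E18.5 bars run from -1.74 for *Npy* to 1.20 for *Slc18a3*.

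At E18.5, 23 of the 24 neuronal genes were at 1 FPKM or more in either library, *Chat* being just under. Of these, 14 were lower and 9 higher in the mutant library, where 30.5% of all genes were lower and 69.5% higher. At least 1.5-fold lower were 5 genes (*Chrna3*, *Npy*, *Nefh*, *Snap25* and *Syn1*), where 7.60% of all genes were, and 5 were at least 1.5-fold higher (*Th*, *Slc18a3*, *Tubb3*, *Prph* and *Uchl1*), where 33.2% were. Past 2-fold, 3 were lower (*Npy*, *Snap25* and *Syn1*) and 2 higher (*Slc18a3* and *Uchl1*), where 2.89% of all genes were lower and 15.1% higher. With the all-gene median subtracted, 15 of 23 were lower, where 48.7% of all genes were. On that scale 10 were at least 1.5-fold lower, where 16% of all genes were, and 3 were at least 1.5-fold higher, where 19.7% were. The 10 were the 5 above with *Hand2*, *Dbh*, *Elavl4*, *Nefm* and *Syt1*. With the fitted dependence on GC content and transcript length removed, 17 of 23 were lower, where 48.9% of the 13820 genes with both properties were. On that scale 9 were at least 1.5-fold lower and each of them also 2-fold lower, where 14.7% and 5.22% of genes were, and none was 1.5-fold higher, where 13.1% were. The 5 genes that had been higher were then at 0.12 (*Th*), 0.30 (*Slc18a3*), 0.13 (*Tubb3*), -0.07 (*Prph*) and 0.32 (*Uchl1*), while *Npy*, *Snap25* and *Syn1* were at -2.37, -1.25 and -1.96. *Phox2a*, *Hand2*, *Nefm* and *Dbh* were at -1.29, -1.32, -1.06 and -1.20, against -0.19, -0.50, -0.41 and -0.57 as deposited. For these genes the subtracted trend makes up most of the value. Over all genes the E18.5 ratio rose with GC content, with a Spearman rho of 0.44 over 13012 genes that share both libraries, against 0.02 at E16.5. By GC content, the 5 genes at least 1.5-fold higher as deposited were at percentiles 69.9 (*Th*), 97.1 (*Slc18a3*), 88.1 (*Tubb3*), 96.5 (*Prph*) and 83.5 (*Uchl1*) of genes. The 5 at least 1.5-fold lower were at 29.2 (*Chrna3*), 68.0 (*Npy*), 90.1 (*Nefh*), 15.5 (*Snap25*) and 88.4 (*Syn1*). The part of GC content in these directions was not tested. Across the 24 neuronal genes the rho with GC content was 0.25. Urothelial markers were higher in sum in the mutant library at this stage, at 457 and 547 FPKM, but 5 of 7 were lower with the all-gene median subtracted. Nephric duct markers were lower in sum, at 20.1 and 16.9 FPKM. The part of both marker sets in these results was not tested.

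The E18.5 wild type library was the highest of the 4 for 10 of the 24 neuronal genes, where it was for 21.9% of all genes. It was the lowest for 10 others, where it was for 63.7% of all genes. Between the 2 wild type libraries 12 of the 24 genes were within 1.5-fold, where 57.3% of all genes were. All 24 were within 1.5-fold between the 2 mutant libraries, where 95.0% were. In wild type UGS, 8 genes were at least 1.5-fold lower at E18.5 than at E16.5, where 35.9% of genes were, and 4 were at least 1.5-fold higher (*Chrna3*, *Npy*, *Snap25* and *Syn1*), where 6.80% were. In Tbx18Gfp/Gfp UGS none of 23 passed 1.5-fold in either direction, where 1.68% of all genes were lower and 3.00% higher. The difference between the genotypes in their stage ratios was not tested. The log2 ratio of Tbx18Gfp/Gfp to wild type had opposite signs at the 2 stages in 14 of the 31 genes, 11 neuronal and 3 glial, where it had in 44.1% of all genes. Of all genes with opposite signs, 82.9% had the E18.5 wild type library as the highest or lowest of the 4 and the 2 mutant libraries within 1.5-fold of each other.

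Without the E18.5 wild type library, E18.5 Tbx18Gfp/Gfp can be set against E16.5 wild type, across stages. In that comparison 22 of 24 neuronal genes were lower, where 60.2% of all genes were, with a median of -0.31 (all genes -0.04). The 2 that were higher were *Th* and *Npy*, at 0.22 and 0.08. *Nefm* and *Elavl3* were at least 1.5-fold lower, at -0.70 and -0.60, where 3.41% of all genes were. This comparison shares the E16.5 wild type library with the E16.5 comparison, so the 2 are not independent, and it also spans a stage.

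**Figure D3:**
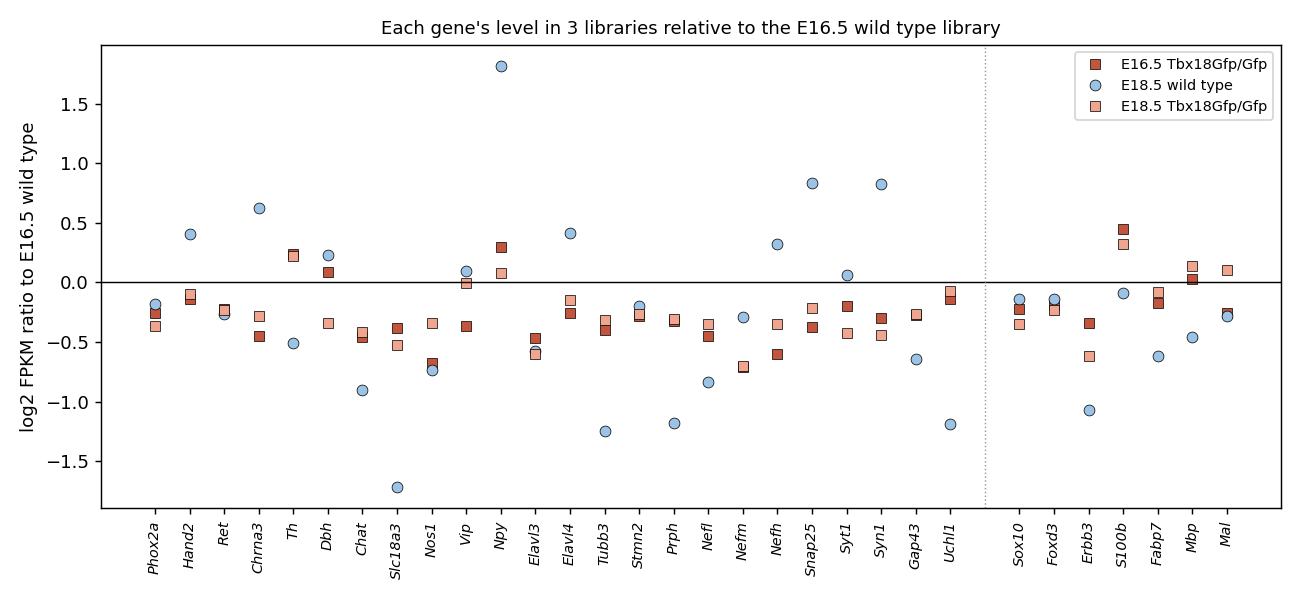
Log2 ratio of FPKM to the E16.5 wild type library (y axis, 0 is that library) for each gene in the other 3 libraries, squares for Tbx18Gfp/Gfp and circles for E18.5 wild type. Squares for most neuronal genes lie between 0 and -0.7 and close to each other, with *Th* and *Npy* above 0, while E18.5 wild type circles run from -1.72 for *Slc18a3* to 1.82 for *Npy*.

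The E18.5 log2 ratios of the Schwann cell genes ran from -0.21 for *Sox10* to 0.59 for *Mbp*, and from -1.16 for *Foxd3* to 0.35 for *Mbp* with the dependence on GC content and length removed. On the latter scale *Sox10* and *Foxd3*, 2 of 7, were at least 2-fold lower, where 5.22% of all genes were. Both are rich in GC, at the 97.8 and 99.5 percentiles of genes, and the subtracted trend makes up most of these differences. *Sox10*, the factor that specifies the lineage, was at 7.89 and 6.76 FPKM at E16.5 and at 7.16 and 6.18 FPKM at E18.5. *Foxd3*, a crest and glial precursor gene, was at 2.51 and 2.203 FPKM at E16.5 and at 2.28 and 2.15 FPKM at E18.5. Log2 ratios of *Sox10* were -0.22 and -0.21, and those of *Foxd3* were -0.19 and -0.09, with counting intervals that spanned 0 at both stages for *Foxd3*. *Erbb3*, the neuregulin receptor, was at 13.9 and 11.0 FPKM at E16.5 and at 6.62 and 9.07 FPKM at E18.5. *Fabp7*, a lipid-binding protein of immature glia, was at 36.0 and 31.9 FPKM at E16.5 and at 23.5 and 34.0 FPKM at E18.5. Both were lowest in E18.5 wild type. *S100b*, a calcium-binding protein of later glia, was at 1.75 and 2.39 FPKM at E16.5 and at 1.64 and 2.19 FPKM at E18.5, and about 60.6 reads gave the E18.5 wild type value. Of the myelin genes, *Mbp* was at 12.0 and 12.2 FPKM at E16.5 and at 8.72 and 13.2 FPKM at E18.5, and *Mal* was at 26.9 and 22.5 FPKM at E16.5 and at 22.2 and 29.0 FPKM at E18.5. At E18.5 *Mbp*, at 0.59, was 1 of 7 at least 1.5-fold higher, where 33.2% of all genes were, and it was under 1.5-fold under each scaling and after the GC and length trend, between 0.17 and 0.35. None was at least 1.5-fold lower at E18.5 in the values as deposited, where 7.60% of all genes were, and none passed 1.5-fold at E16.5, where 2.72% were lower and 1.44% higher.

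At E16.5, 5 of the 7 glial genes were lower and 2 higher in the mutant library, with a median of -0.18, where 45.7% of all genes were lower. At E18.5 2 were lower and 5 higher, with a median of 0.39, where 30.5% of all genes were lower and 69.5% higher. With library sums made equal *Mal* and *S100b* at E18.5 and *Mbp* at E16.5 turned from higher to lower, at -0.04, -0.01 and -0.08. The E18.5 median was 0.11 with the all-gene median subtracted, and with library sums made equal it was -0.03, so its direction depended on the scaling. All 7 were lower at E18.5 than at E16.5 in wild type UGS, where 72.3% of all genes were, and 4 of 7 in Tbx18Gfp/Gfp UGS, where 64.7% were.

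Wider lists for the same cells were read the same way. Of 48 other neuronal genes, 46 were at 1 FPKM or more at E16.5, and 34 were lower and 12 higher in the mutant library, with a median of -0.24, where 45.7% of all genes were lower. The 4 at least 1.5-fold lower, where 2.72% of all genes were, were *Sst*, the peptide somatostatin, at 60.4 and 30.0 FPKM, *Ina*, a neuronal filament, at 13.4 and 8.35 FPKM, *Sv2c*, a synaptic vesicle protein, at 8.91 and 5.69 FPKM, and *Slc5a7*. *Sst* was the only one past 2-fold, where 1.17% of all genes were, and *Chrnb4*, which pairs with *Chrna3* in ganglionic receptors, had a log2 ratio of -0.56. At E18.5, 24 of 45 were lower and 21 higher, with a median of -0.04, where 30.5% of all genes were lower and 69.5% higher. Among genes at 1 FPKM or more in both libraries, large differences were in *Ddc*, *Stx1a* (0.89), *Vamp2* (95.0 and 52.5 FPKM, -0.85) and *Sv2a* (0.79), the last 3 being genes of synaptic vesicles and their fusion.

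Of 22 other glial genes, 17 were at 1 FPKM or more at E16.5, 11 lower and 6 higher in the mutant library, with a median of -0.07 and none past 1.5-fold, where 45.7% of all genes were lower by any amount. Of those at 1 FPKM or more in both libraries, large log2 ratios in size were -0.57 for *Art3*, -0.39 for *Tfap2a*, a crest transcription factor, -0.27 for *Sox2* and -0.21 for *Ednrb*, the endothelin receptor of crest cells. At E18.5, 8 were lower and 9 higher, with a median of 0.19, where 30.5% and 69.5% of all genes were. *Cnp*, a myelin enzyme, was at 4.70 and 13.7 FPKM. *Gfra3* and *Erbb2*, receptor partners of RET and ERBB3, had log2 ratios of 0.89 and 0.84, and *Tfap2b* and *Tfap2a* had -0.80 and -0.67.

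Trophic ligands for these neurons and glia were low, and 9 of 10 were at 1 FPKM or more at E16.5. There, 7 were higher and 2 lower in the mutant library, none past 1.5-fold, with a median of 0.18, where 45.7% of all genes were lower. *Gdnf*, the ligand that acts through RET, was at 2.38 and 3.04 FPKM, and *Ntf3* at 1.92 and 1.63 FPKM. *Nrg2* and *Ntf5* had log2 ratios of 0.36 and 0.27. At E18.5, 6 of 8 were higher, where 69.5% of all genes were, and 4 of 8 with the all-gene median subtracted. Among ligands at 1 FPKM or more in both libraries, the log2 ratios included *Nrg2* at 0.98, *Ntf3* at 0.68 and *Gdnf* at 0.41. *Nrg1*, the Schwann cell ligand, was lower, at -0.83. *Nrtn* was further apart, at 0.936 and 4.62 FPKM, but only about 22 estimated reads gave its wild type value.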

How the data were processed

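Per the labels, whole UGS of male embryos was dissected, and stranded mRNA libraries were made from RNA pooled from 3 embryos per genotype and stage, with groups taken from the sample titles. Gene positions were read from the table as deposited, with 1 added to each start. The genome build is not given in the sources used here, and the positions differ from GRCm38. The authors' processing notes name CASAVA 1.8.2, Trimmomatic 0.30, TopHat2 2.1.0 and Cufflinks 2.2.1. The deposited values are FPKM from Cufflinks for 25819 rows, with no further scaling stated. The members and gene lists were chosen with earlier results of these data known.

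Ratios were taken of FPKM without a pseudocount, for genes that reached 1 FPKM in one or the other library, and medians of lists used log2(FPKM + 0.1), which understates differences of low genes. Differences were counted at any size, 1.5-fold and 2-fold, and read against the same counts over all genes. The depth was estimated from the FPKM of single reads on 15 to 27 olfactory receptor genes per library, between 850 and 1100 bases long. With 1 library per group no test, standard deviation or p-value was computed. Alternatives were library sums made equal, the median of all genes at 0, upper quartiles made equal (75th percentile), subtraction of a lowess trend (span 0.3) on transcript length and GC content, with annotation for 93.7% of expressed rows, no filter, a minimum of 5 FPKM in one library, a minimum of 1 FPKM in both, pseudocounts of 0.01 and 1, leaving out genes known from other cells, and, for E18.5, E16.5 wild type as control. Counts of genes lower by any amount were added after the data were seen. The trend subtraction was tested on simulated data with a linear GC trend and 200 changed genes, drawn without regard to GC content. That test does not cover genes at the extremes of GC content in particular. The counting interval was checked on fixed counts, and the other steps were not simulated.

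All 31 members are named. Some genes that the rule below names are not reported here. Of the lists of other neuronal genes, other glial genes and trophic ligands, up to 5 genes per stage are named, those with the largest log2 ratio in size that reached 1 FPKM in the lower library. Cartilage markers summed to between 5.83 and 9.29 FPKM and intestinal epithelial markers to between 3.06 and 4.94 FPKM, 1 of 7 being at 1 FPKM or more. Sequences are RefSeq windows of 250 bases before the start. Calculations ran in Python 3.11.15, with tables in pandas 2.3.3 and numpy 2.4.6, intervals from scipy 1.17.1, the trend from statsmodels 0.14.6 and plots from matplotlib 3.10.9.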

Additional observations from a re-analysis of the deposited data

Results flagged for a closer look

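For 11 neuronal genes, 3 glial genes and the glial median, the log2 ratio of Tbx18Gfp/Gfp to wild type lay on opposite sides of 0 at E16.5 and E18.5. With 1 library per group the difference between the stages was not tested. The E18.5 ratio minus the E16.5 ratio was largest among those higher in the mutant library at E18.5 for *Slc18a3* (1.58), *Tubb3* (1.34), *Uchl1* (1.26), *Prph* (1.20) and *Nos1* (1.06). It was 0.94 for both *Chat* and *Nefl*, 0.65 for *Gap43* and 0.26 for *Ret*, and among glial genes 0.79 for *Erbb3*, 0.70 for *Fabp7* and 0.65 for *Mal*. *Npy* and *Dbh* went the other way, with differences of -2.04 and -0.66. The glial median differed by 0.58. In each of these 14 genes the 2 Tbx18Gfp/Gfp libraries were within 1.5-fold of each other, and the E18.5 wild type library, which had the lowest estimated depth, was the highest or the lowest of the 4. This held for 82.9% of all genes with opposite signs, and 44.1% of all genes had opposite signs. Over all genes, 95.0% had the mutant libraries within 1.5-fold and 85.6% had the E18.5 wild type library as the highest or lowest. Of these 14 genes, 7 had a ratio that changed sign under a scaling or the length and GC trend: *Ret*, *Nos1*, *Gap43*, *Chat*, *Prph* and *Mal* at E18.5 and *Dbh* at E16.5. The E18.5 glial median changed sign too.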

How the results depend on the processing

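At E16.5 the direction of the neuronal median and of the glial median held under the alternatives run, and the 3 neuronal genes at least 1.5-fold lower became 2 with a minimum of 5 FPKM (without *Nefh*) and 2 without the genes known from other cells (without *Nos1*). The neuronal median was -0.42 with library sums made equal. The share of neuronal genes that were lower ran from 19 of 22 with a minimum of 5 FPKM to 22 of 24 with library sums made equal. At E18.5 the neuronal median of -0.11 became -0.53 with library sums made equal, -0.39 with the all-gene median subtracted, -0.35 by upper quartiles, -0.40 after the length and GC trend, and -0.31 with E16.5 wild type as control. The 5 genes at least 1.5-fold lower became 11, 10, 10, 9 and 2 under these settings, in that order. The 5 at least 1.5-fold higher became 2 with library sums made equal, 3 with the median subtracted, 0 after the trend and 0 with E16.5 wild type as control. With that control 22 neuronal genes were lower, against 14. The E18.5 glial median of 0.39 reversed to -0.0301 with library sums made equal, to -0.0833 without the genes known from other cells (3 genes left) and to -0.0824 with E16.5 wild type as control, and was 0.11 with the median subtracted, 0.15 with upper quartiles and 0.0926 after the trend. *Prph* at E18.5 reversed from 0.87 to -0.0738 after the trend. The causes were not tested. Scaling moved all E16.5 log2 ratios by up to 0.11 and all E18.5 ratios by up to 0.42. No paired analysis was possible because each group was 1 pooled library.

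With no replicates, embryo-to-embryo spread is unknown, and the genotype cannot be told apart from differences between pools. *Chat*, *S100b*, *Foxd3* and *Slc18a3* rested on the fewest estimated reads of the 31 genes in E18.5 wild type, 55.0, 60.6, 139.8 and 239.9.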
